A study of Mus musculus with 6106 samples.

Results

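The 10 genes described here encode transcription factors that have been linked to effector regulatory T cells: Irf4, Batf, Prdm1, Maf, Gata3, Rora, Id2, Tbx21, Bcl6 and Ikzf3. They were taken by symbol from the single-cell count table, and all 10 of the 10 symbols were among its 23725 genes. Their counts were read in 5435 mouse spleen cells that each held at least 500 UMIs. A UMI is the molecular barcode that marks 1 captured RNA molecule. Of these factors, Rora had 10 UMIs in all and Tbx21 had 41, both below the minimum of 50 set for comparing levels, so that 8 factors were compared between groups and these 2 are given as counts only.

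The cells were splenic regulatory T cells of male B6 mice aged 10 months that carried the reporters Nr4a1-Gfp and Foxp3-Ires-Thy1.1. All 3 groups shared both reporters, the sex, the age and the sort for TCR beta, CD4 and Thy1.1, and differed only in the window of GFP they were sorted from. GFPlow was the window from 0 to 20 percent of GFP intensity, GFPmed that from 40 to 60 percent and GFPhigh that from 80 to 100 percent. Nr4a1 is an immediate early gene of T cell receptor signalling, and its reporter is read as a measure of recent signal. Each window was 1 inDrops library with 0 replicates, and the number of mice behind a library was not given in the sources used here. Differences between windows therefore cannot be told apart from differences between libraries. No test between windows was made, and every interval below covers counting error only.

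Of the cells used, 39.1% were from GFPlow, 28.3% from GFPmed and 32.7% from GFPhigh, with a mean of 1147.4, 1634.5 and 1279.1 UMIs per cell and 2270376 to 2512277 UMIs per library. A gene with no UMI could have a level of up to 1.23, 1.19 and 1.32 UMIs per 1000000 (UPM) in the same order. All 10 markers of regulatory and CD4 T cells were detected in every library, with a summed level of 3750 to 4572 UPM. Other cell types left smaller sums: B cell markers gave 203.6 to 279.03 UPM, plasma cell markers 23.4, 6.77 and 233.9 UPM in the order of rising GFP, and erythroid markers 1399, 3002 and 1051 UPM. Cells that held at least 3 different markers of another type numbered 79 and are given below beside some of the results. Of 5361 distinct cell barcodes, 73 occurred in more than 1 library.

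Regulatory T cells that have met antigen leave the resting state and take up an effector programme. Irf4 and Batf, which bind DNA together at composite sites, are induced by T cell receptor signals and open that programme. Prdm1 encodes Blimp-1, a repressor that marks the differentiated effector state and that opposes the repressor encoded by Bcl6. Maf, Gata3, Rora, Tbx21 and Id2 are used by effector subsets that resemble the helper T cell lineages or reside in tissue. Ikzf3 encodes Aiolos, a zinc finger protein of the Ikaros family.

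The upstream sequences of 3 factors are shown as examples of patterns given below. Irf4 was higher in cells with TCR-induced genes, Prdm1 was higher in cells with effector surface genes, and Bcl6 rose over the GFP windows in the main counts. The patterns were not exclusive: Prdm1 was also higher in cells with TCR-induced genes, and so was Bcl6 in GFPlow and GFPmed. RefSeq gave a window around the gene start for 8 of the 10 factors (build GRCm38.p6). The lines give the bases before the start, 5′ to 3′ on the strand of the gene, without bases in a GENCODE exon. Capitals mark a match to one of 5 motifs searched on both strands.
Irf4: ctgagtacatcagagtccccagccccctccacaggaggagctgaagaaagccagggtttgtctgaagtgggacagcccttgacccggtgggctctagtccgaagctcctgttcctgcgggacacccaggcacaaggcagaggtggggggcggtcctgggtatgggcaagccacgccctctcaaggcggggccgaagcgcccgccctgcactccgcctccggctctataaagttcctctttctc
Prdm1: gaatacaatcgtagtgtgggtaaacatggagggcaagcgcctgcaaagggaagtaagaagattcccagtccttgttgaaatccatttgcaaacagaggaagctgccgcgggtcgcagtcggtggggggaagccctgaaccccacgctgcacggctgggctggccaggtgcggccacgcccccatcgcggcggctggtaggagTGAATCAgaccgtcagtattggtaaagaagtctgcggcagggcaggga
Bcl6: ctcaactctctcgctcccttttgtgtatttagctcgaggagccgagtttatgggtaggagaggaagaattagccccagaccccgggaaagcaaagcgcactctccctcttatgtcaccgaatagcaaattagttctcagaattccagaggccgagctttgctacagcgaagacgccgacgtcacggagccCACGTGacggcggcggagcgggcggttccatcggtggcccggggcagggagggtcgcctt
The Irf4 stretch is chr13:30748983-30749225 on the plus strand and ends at the first annotated exon. The Prdm1 stretch is chr10:44458749-44458998 on the minus strand and lies in an intron of the longest GENCODE model of the gene. The Bcl6 stretch is chr16:23988853-23989102 on the minus strand and lies outside any annotated gene.

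In the full 300-base windows the response element of Nr4a receptors, AAAGGTCA, matched in none of the 8 factors, and 1.51% of all 32851 windows held it. The interferon-stimulated element GAAANNGAA also matched in none, against 8.56% of all windows. An AP-1 motif, TGANTCA, was present in the Prdm1 window as TGAATCA from base -48, counted from the gene start, and 7.81% of all windows held one. The Bcl6 window of the stretch shown held the E-box CACGTG from base -60 (7.15% of all windows). RefSeq also gave another Bcl6 window, chr16:23981234-23981533, in which no match was marked. The Batf window held the Runx motif AACCACA from base -57 (5.27% of all windows). A match is a description of the letters and no evidence of binding.

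Between the outer windows the factors went in both directions. At least 1.5-fold higher in GFPhigh than in GFPlow were 2 of the 8 factors, Irf4 and Bcl6, where 9.79% of the 8633 genes with at least 50 UMIs were. At least 1.5-fold lower were also 2, Prdm1 and Maf, where 6.49% of those genes were. The median log2 ratio of the 8 factors was -0.03, beside 0.04 for all 8633 genes.

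GFPmed did not lie between the outer windows for most factors. Of the 8 factors, 6 had their lowest level there, and 5 were at least 1.5-fold lower in GFPmed than in GFPlow: Irf4, Prdm1, Maf, Id2 and Ikzf3, beside 6.14% of all genes. The share of all genes with their lowest level in GFPmed is not given here, so the count of 6 has no background. Only Bcl6 was at least 1.5-fold higher, beside 5.61% of all genes. The median log2 ratio of the factors was -0.97, beside -0.04 for all genes. In GFPhigh over GFPmed, which shares the GFPmed library, 4 factors were at least 1.5-fold higher (Irf4, Gata3, Id2 and Bcl6, beside 8.53% of all genes), 0 were lower (beside 4.51%), and the medians were 0.55 and 0.08. The GFPmed cells were also the most deeply sequenced, and that library had the highest sums of erythroid, myeloid and CD8 T or NK cell markers, whose part in these ratios was not tested.

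**Figure D1:**
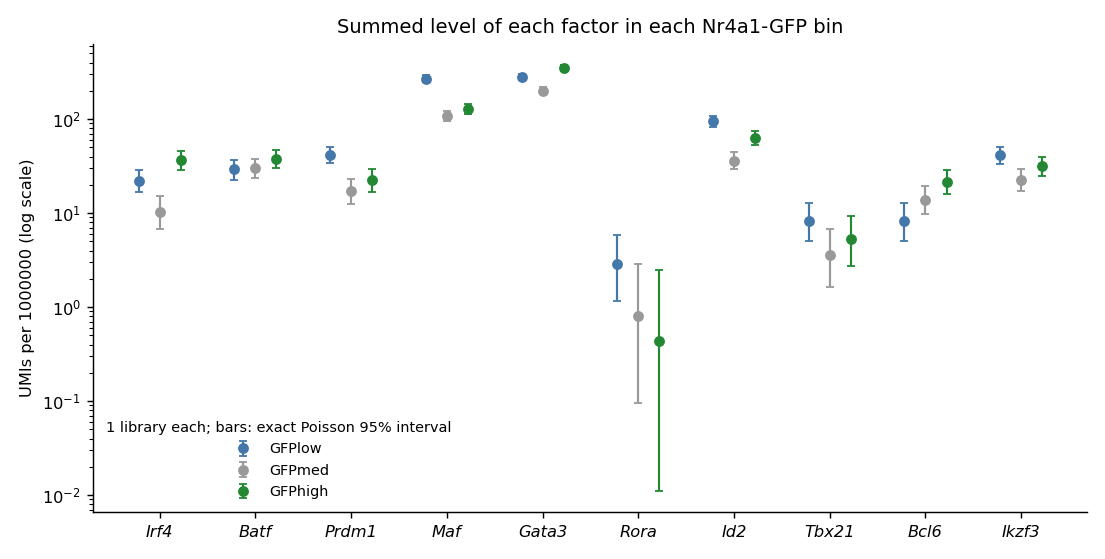
Level of each of the 10 factors (UMIs per 1000000, log scale) in the GFPlow, GFPmed and GFPhigh libraries, with exact Poisson 95% intervals. Irf4, Prdm1, Maf, Gata3, Id2 and Ikzf3 lie lowest in GFPmed, Bcl6 rises from 8.21 to 13.9 and 21.6 UPM, and Rora and Tbx21 rest on 10 and 41 UMIs.

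Irf4 (chromosome 13, 30749226 to 30766976, plus strand, mm10) encodes the interferon regulatory factor that scales with the strength of T cell receptor signal. Its UMIs numbered 54 in the GFPlow library, 26 in GFPmed and 83 in GFPhigh, or 22.2, 10.3 and 36.6 UPM. GFPhigh was the highest library and GFPmed the lowest, and the 95% intervals of GFPmed (6.76 to 15.2 UPM) and GFPhigh (29.1 to 45.3 UPM) did not overlap. The log2 ratio was 0.72 for GFPhigh over GFPlow (interval 0.21 to 1.24), and with every cell given equal weight it was 0.49, under 1.5-fold. For GFPhigh over GFPmed it was 1.80 (1.17 to 2.52). The gene was concentrated in few cells: 48 of the 1775 GFPhigh cells held a UMI, and 20 of them held at least 2. Irf4 is also a factor of B and plasma cells, and the 79 cells with markers of another type held 14, or 8.59%, of its UMIs. Without those cells the ratio of GFPhigh over GFPlow was 0.86.

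Batf (chromosome 12, 85686669 to 85709087, plus strand) encodes the AP-1 family partner of Irf4. From 71, 75 and 86 UMIs its levels came to 29.1, 29.9 and 37.9 UPM in the order GFPlow, GFPmed, GFPhigh. The 3 intervals overlapped, and no ratio reached 1.5-fold in the full counts. The ratio of GFPmed over GFPlow depended on depth: its log2 value was 0.03 in the full counts and -0.60 when each cell was thinned to 500 UMIs. After thinning GFPhigh over GFPmed was 0.99, and in cells with at least 1000 UMIs GFPhigh over GFPlow was 0.71, both past 1.5-fold.

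Prdm1 (chromosome 10, 44437177 to 44528501, minus strand) had 101 UMIs in the GFPlow library, 43 in GFPmed and 51 in GFPhigh. These counts gave 41.5, 17.1 and 22.5 UPM, so that GFPlow stood above both other libraries, whose intervals overlapped each other. The log2 ratio of GFPhigh over GFPlow was -0.88 (-1.4 to -0.39), and -0.50 in cells thinned to 500 UMIs, which is under 1.5-fold. The ratio of GFPmed over GFPlow was -1.27 (-1.83 to -0.75).

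Maf (chromosome 8, 115682942 to 115707794, minus strand) encodes c-Maf, which drives Il10 and other effector genes in T cells. Its levels were 270.1, 107.9 and 127.7 UPM, the first from 658 UMIs. GFPlow was more than 2-fold above both other libraries, with log2 ratios of -1.08 (-1.29 to -0.88) for GFPhigh and -1.32 (-1.53 to -1.12) for GFPmed over GFPlow. The share of cells with a UMI differed in the same way: after thinning it was 10.6% in GFPlow (9.28 to 11.9%), 4.81% in GFPmed (3.8 to 6.01%) and 5.35% in GFPhigh (4.35 to 6.50%). In the full counts these shares were 17.4%, 7.94% and 8.62%. Among the 79 cells with markers of another type the thinned share was 1.27% (0.03 to 6.85%), from 1 cell, at a median of 1258 UMIs per cell beside 1207 in the rest. The share of Maf in GFPlow lay above that interval, and those of GFPmed and GFPhigh lay within it. An interval from 1 cell is wide and cannot show that these shares are alike. In the full counts the 79 cells held 1 Maf UMI, or 6.27 UPM, beside 172.5 UPM in the rest of the 3 libraries together.

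Id2 (chromosome 12, 25093799 to 25097140, minus strand) encodes an inhibitor of E proteins that binds them without binding DNA. Its levels were 94.4 UPM (from 230 UMIs), 36.2 UPM (from 91) and 63.4 UPM, and its 3 intervals did not overlap. The 79 cells with markers of another type held 18, or 3.87%, of its UMIs. The log2 ratio of GFPmed over GFPlow was -1.38 (-1.75 to -1.03), -1.87 after thinning and -1.65 without cells holding at least 2 UMIs of other types. That of GFPhigh over GFPlow was -0.57 (-0.89 to -0.27), just short of 1.5-fold, and past it with TMM (-0.62) or median of ratios scaling (-0.63), which made the lower factors 3, and without the cell with most Id2 UMIs in each library (-0.60).

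Gata3 (chromosome 2, 9857078 to 9890034, minus strand) encodes the factor of type 2 helper cells, which is also used by tissue regulatory T cells. Its UMIs came to 690, 504 and 793, or 283.3, 200.6 and 349.3 UPM. The 3 intervals did not overlap, and GFPhigh was highest, unlike for Maf and Prdm1. The log2 ratio was 0.30 for GFPhigh over GFPlow (0.15 to 0.45), -0.50 for GFPmed over GFPlow (-0.67 to -0.33) and 0.80 for GFPhigh over GFPmed (0.64 to 0.96). The thinned share of cells with a UMI was 11.3%, 8.98% and 13.9%, beside 2.53% (0.31 to 8.85%) in cells with markers of another type.

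Bcl6 (chromosome 16, 23965052 to 23988852, minus strand) encodes the repressor of follicular T cells. With 20, 35 and 49 UMIs, its levels were 8.21, 13.9 and 21.6 UPM, and it was the only factor of the 8 with 1.5-fold steps upward at each window in the main counts. The log2 ratio of GFPhigh over GFPlow was 1.37 (0.62 to 2.22), whereas the intervals of the single steps, 0.75 (-0.07 to 1.63) and 0.63 (-0.02 to 1.30), reached 0. The single steps did not hold under every setting. The first was under 1.5-fold after thinning (0.47) and without cells that held at least 2 UMIs of other cell types (0.46). The second was under 1.5-fold after thinning (0.43), with TMM (0.55) or median of ratios scaling (0.55) and with no minimum of UMIs per cell (0.56). GFPhigh over GFPlow stayed above 1.5-fold in all of these, from 0.89 after thinning to 1.5 without cells of other types. Bcl6 is also a factor of germinal centre B cells, and the 79 cells with markers of another type held 10, or 9.62%, of its UMIs.

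Ikzf3 (chromosome 11, 98464902 to 98546031, minus strand) gave 41.1, 22.7 and 31.7 UPM from 100, 57 and 72 UMIs. GFPmed was lower than GFPlow by -0.85 on the log2 scale (-1.35 to -0.37), and the interval of GFPhigh over GFPlow, -0.37 (-0.83 to 0.08), included 0. In cells with at least 1000 UMIs GFPmed over GFPlow was -0.46, under 1.5-fold.

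Rora (chromosome 9, 68653786 to 69388246, plus strand), a nuclear receptor of tissue lymphocytes, had 7 UMIs in the GFPlow library, 2 in GFPmed and 1 in GFPhigh. Tbx21 (chromosome 11, 97098071 to 97115331, minus strand), which encodes T-bet of type 1 helper cells, had 20, 9 and 12. Both counts were highest in GFPlow. The interval of GFPhigh over GFPlow included 0 for both, from -8.20 to 0.26 on the log2 scale for Rora and from -1.80 to 0.47 for Tbx21, so a difference was not detectable at this depth.

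For Irf4, Prdm1, Id2, Bcl6, Ikzf3 and Tbx21 the thinned share of cells with a UMI was no greater in the regulatory T cells as a whole (0.90%, 1.25%, 2.67%, 0.80%, 1.66% and 0.355%) than in the 79 cells with markers of another type (5.06%, 2.53%, 5.06%, 5.06%, 6.33% and 1.27%). These shares alone therefore do not separate expression from stray RNA. Those cells are not a neutral background: 46 of them held B cell markers, and their lineage uses Irf4, Bcl6 and Ikzf3. The 6 with CD8 T or NK cell markers held 8 UMIs of Id2, all 3 of Tbx21 and 2 of Prdm1. The 10 with myeloid markers held 8 UMIs of Id2, and the 46 held 0. The shares in the 79 cells rest on 4, 2, 4, 4, 5 and 1 cells in the order above. For Prdm1, Id2 and Tbx21 their intervals (0.31 to 8.85%, 1.40 to 12.5% and 0.03 to 6.85%) included the share of the regulatory T cells. In the 19 cells with erythroid markers, Irf4, Batf, Bcl6 and Ikzf3 had 0 UMIs of 68646, which allows up to 43.7 UPM. Maf had 1 UMI there, Gata3 2 and Id2 3. The limit of 43.7 UPM lay above the level of Irf4, Batf, Bcl6 and Ikzf3 in each library. Their 0 counts therefore cannot tell absence from those levels.

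**Figure D2:**
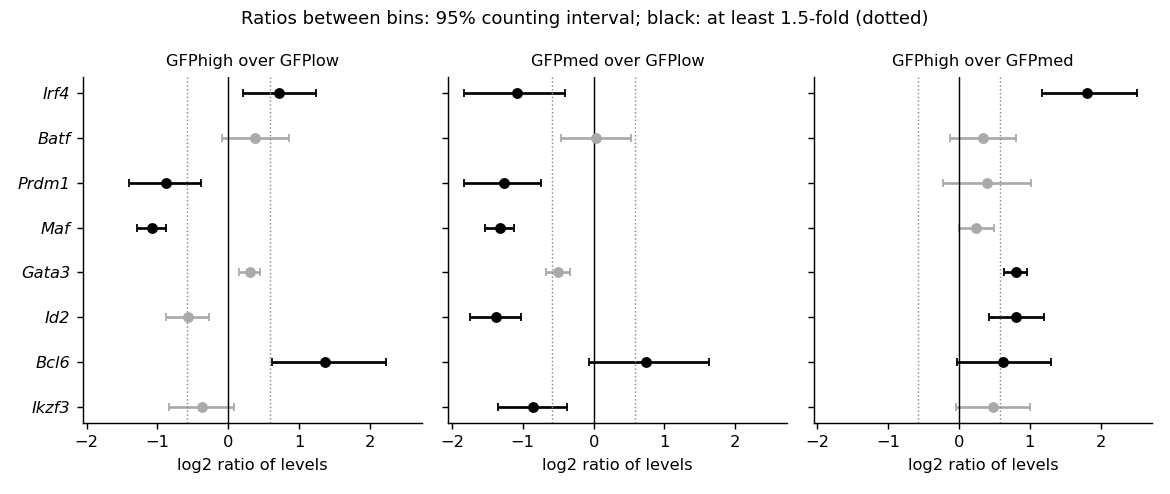
Log2 ratios of the summed levels of 8 factors between the libraries, with exact 95% counting intervals; black points are at least 1.5-fold from 1 and dotted lines mark 1.5-fold. Maf and Prdm1 lie to the left and Irf4 and Bcl6 to the right in GFPhigh over GFPlow, 5 factors lie to the left in GFPmed over GFPlow, and all 8 lie right of 0 in GFPhigh over GFPmed. The median log2 ratio of all measured genes in GFPhigh over GFPmed was also above 0, at 0.08. The share of all genes right of 0 is not given here, so the count of 8 has no background. In that comparison the intervals of Batf, Prdm1, Maf, Bcl6 and Ikzf3 included 0.

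To see in which cells of each window the factors lay, cells were divided by 3 lists that hold none of the 10 factors, after thinning each cell to 500 UMIs. A cell was counted inside a gate if it held at least 1 UMI of its list. Levels were read from the full counts, so that a cell outside a gate could still hold UMIs of its list. The effector gate (S100a4, S100a6, Ccr2, Itgb1, Itgae, Klrg1, Il1rl1 and Myo1f) held 27.9% of GFPlow cells, 12.9% of GFPmed and 10.6% of GFPhigh cells. The TCR gate (Nr4a1, Nr4a2, Nr4a3, Egr1, Egr2, Egr3, Tnfrsf9 and Cd83) went the other way, with 4.33%, 7.94% and 19.6%. The resting gate (Ccr7, Igfbp4, Lef1, Tcf7 and S1pr1) held 48.9%, 50.7% and 41.1%. The windows were sorted on an Nr4a1 reporter and Nr4a1 is in the TCR list, so that this order is no independent result. Gates overlapped, and 30, 29 and 43 cells were in both the effector and the TCR gate.

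Of the 8 factors, 3 were at least 1.5-fold higher inside than outside the effector gate in all 3 libraries: Prdm1, Maf and Id2. The same held for 3.99% of the 8615 genes compared. None was lower in all 3, beside 0.685% of genes. Id2 had 239.6 UPM inside against 41 outside in GFPlow, 131.3 against 22.3 in GFPmed and 162.6 against 51.0 in GFPhigh. Maf had 528.0 against 175.2, 375.3 against 68.9 and 479.7 against 83.7 UPM in the same order. In both cases every inside value lay above every outside value, across libraries as well as within them. Prdm1 had 70.2 against 30.9, 37.5 against 14.1 and 91.2 against 13.9 UPM. Its inside level in GFPhigh, from 23 UMIs, gave a log2 ratio of 2.72 (1.85 to 3.56), beside 1.19 (0.59 to 1.78) in GFPlow.

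Gata3 was higher inside the effector gate in every library, by less: 463.9 against 216.8, 350.3 against 178.8 and 467.9 against 334.5 UPM, or log2 ratios of 1.10, 0.97 and 0.49, the last of them under 1.5-fold. Irf4 and Batf showed log2 ratios of 0.29 to 0.83, and their intervals included 0 in all but 1 of the 6 cases, Batf in GFPlow. Ikzf3 differed between libraries: it had 67.1 UPM inside against 31.5 outside in GFPlow, 21.9 against 22.8 in GFPmed and 15.9 against 33.7 in GFPhigh, the last from 4 UMIs inside.

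Inside the TCR gate 4 factors were at least 1.5-fold higher in all 3 libraries: Irf4, Batf, Prdm1 and Maf, beside 2.76% of genes. None was lower in all 3, beside 1.21%. Irf4 stood out with 127.5 UPM inside against 17.6 outside in GFPlow, 31.2 against 8.62 in GFPmed and 112.2 against 17.2 in GFPhigh. Its log2 ratios were 2.90 (1.84 to 3.79), 1.94 (0.25 to 3.23) and 2.70 (2.04 to 3.40). The 19.6% of GFPhigh cells in this gate held 62.7% of that library's Irf4 UMIs. Median depth differed little across the gate, at 1178.5 UMIs inside and 1118 outside in GFPhigh and 1050 and 1086 in GFPlow.

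Batf was higher inside the TCR gate with log2 ratios of 0.92, 1.25 and 1.15, of which the interval in GFPlow (5 UMIs inside) included 0. Maf had 490.3 UPM inside against 260.5 outside in GFPlow, 312.5 against 90.9 in GFPmed and 233.1 against 100.7 in GFPhigh. Prdm1 showed ratios of 0.64, 1.31 and 1.11, with intervals that included 0 in GFPlow and GFPmed. Bcl6 was higher inside by 3.36 (1.63 to 4.76) in GFPlow and 2.11 (0.79 to 3.20) in GFPmed, from 6 and 9 UMIs, and by 0.53 (-0.55 to 1.44) in GFPhigh. Id2 had log2 ratios of -0.38, 0.48 and 0.55 across this gate, all with intervals that included 0, beside 2.54, 2.56 and 1.68 across the effector gate. No test compared the gates.

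Inside the resting gate Irf4, Maf and Id2 were at least 1.5-fold lower in all 3 libraries, 3 of 8 factors beside 1.5% of genes. None was higher, beside 0.197%. Maf had 190.4 UPM inside against 346.5 outside in GFPlow, 52.7 against 164.3 in GFPmed and 48.6 against 180.3 in GFPhigh. Gata3 was near level across this gate in each library, with log2 ratios of -0.17, -0.30 and 0.01, and in GFPhigh it had 349.98 UPM inside and 348.8 outside.

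**Figure D3:**
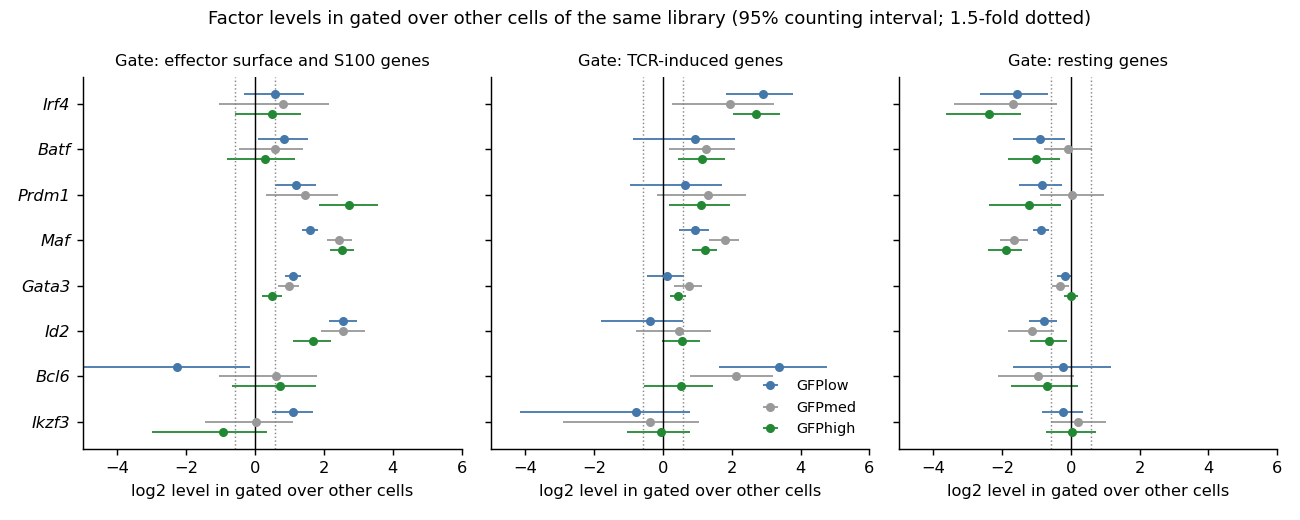
Log2 ratio of the level of 8 factors in gated over other cells of the same library, for 3 gates, with exact 95% counting intervals (the Bcl6 interval in GFPlow at left runs beyond the axis); dotted lines mark 1.5-fold. Id2 and Maf lie far to the right for the effector gate and Irf4 for the TCR gate in all 3 libraries, and Gata3 lies near 0 for the resting gate.

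The difference between windows was then read within gated and other cells separately. For Irf4 the ratio of GFPhigh over GFPlow was 0.72 in all cells, -0.22 (-1.08 to 0.82) inside the TCR gate and -0.03 (-0.76 to 0.67) outside it. The levels were 112.2 and 127.5 UPM inside and 17.2 and 17.6 UPM outside, so that the 2 libraries were close on either side of the gate and differed in the share of cells inside it. In GFPmed Irf4 was lower on both sides, at 31.2 and 8.62 UPM.

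Maf behaved differently on the 2 sides of the effector gate. Inside it, GFPhigh over GFPlow was -0.13 (-0.45 to 0.16), with 479.7 and 528.0 UPM. Outside it the ratio was -1.06 (-1.34 to -0.79), with 83.7 and 175.2 UPM. Prdm1 showed 0.39 (-0.41 to 1.13) inside and -1.14 (-1.87 to -0.47) outside. For both factors the lower level in GFPhigh was thus found outside the gate, in a library where the gate also held fewer cells.

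Id2 was the reverse: -0.55 (-1.09 to -0.06) inside the effector gate and 0.31 (-0.13 to 0.77) outside. Gata3 was 0.02 (-0.31 to 0.32) inside and 0.62 (0.44 to 0.81) outside, where it had 334.5 UPM in GFPhigh against 216.8 in GFPlow. The higher Gata3 level of GFPhigh was therefore measured in cells outside the effector gate, which held no UMI of its list after thinning. Bcl6 outside the TCR gate was higher in GFPhigh by 1.70 (0.81 to 2.74), and inside it the interval, -1.13 (-2.56 to 0.61), included 0. Ikzf3 inside the effector gate was lower in GFPhigh by -1.93 (-4.02 to -0.62), from 4 against 44 UMIs, and outside the ratio was 0.10 (-0.43 to 0.64).

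**Figure D4:**
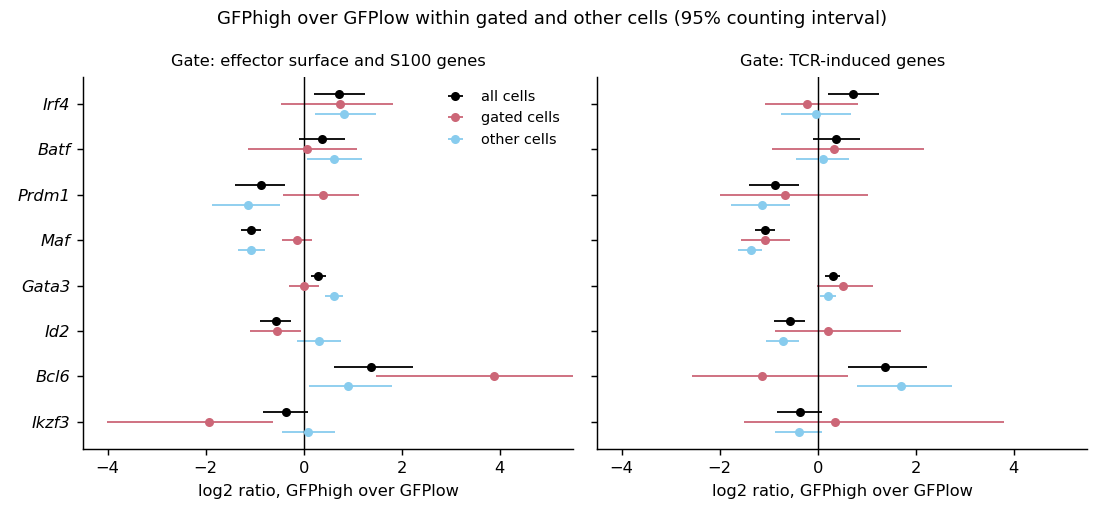
Log2 ratio of GFPhigh over GFPlow for 8 factors in all cells, gated cells and other cells, for the effector gate and the TCR gate, with exact 95% counting intervals (that of Bcl6 in the effector gate runs beyond the axis). Irf4 is right of 0 in all cells and near 0 on both sides of the TCR gate, and Maf and Prdm1 are left of 0 outside the effector gate.

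Few cells were seen with UMIs of several factors at once. After thinning, 26.6% of GFPlow cells, 17% of GFPmed and 25.6% of GFPhigh cells held a UMI of any of the 10 factors, and 5.56%, 2.21% and 3.49% held at least 2. Without thinning 41.9%, 35.4% and 42.8% held any and 12.7%, 8.20% and 10.6% held at least 2. The most found in 1 cell was 5 factors in each library. The shares depended on depth, and a cell without a UMI of a factor is not shown to lack it.

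Cells with a UMI of Maf had more of most other factors. Of the 56 ordered pairs of the 8 factors, 13 showed a level at least 1.5-fold higher in cells with a UMI of the first factor than in those without, in all 3 libraries. Over all pairs of a factor and a measured gene this was so for 4.53%. Each pair of factors enters the 56 in both directions, which are not independent. Irf4 with Bcl6, Batf with Ikzf3, Maf with Prdm1 and Maf with Id2 passed in both. The 13 are therefore not separate pairs. Prdm1 had 78.7 UPM in cells with Maf against 33.2 in the others in GFPlow, 67.4 against 12.6 in GFPmed and 128.1 against 11.7 in GFPhigh. Id2 had 204.5 against 69.8, 129.9 against 27.8 and 180.2 against 51.5 UPM. Gata3 had 469.7 against 241.6, 346.4 against 187.5 and 531.2 against 330.7 UPM. Batf had 49.4 against 24.6, 67.4 against 26.5 and 80.6 against 33.5 UPM. For these 4 factors the interval of the ratio lay above 0 in every library. Median depth of cells with and without Maf was 1099 and 1083 UMIs in GFPlow, 1568.5 and 1538 in GFPmed, and 1220 and 1121.5 in GFPhigh.

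Irf4 and Bcl6 also passed in the full counts, on 7 UMIs of Bcl6 in cells with Irf4 over the 3 libraries. The lowest log2 ratio for Bcl6 in cells with Irf4 was 1.18, in GFPmed, from 1 UMI, and its interval (-4.73 to 3.19) included 0. Without cells that held at least 2 UMIs of other cell types the lowest ratio was 0.19, with 4 such UMIs over the 3 libraries, and the pair no longer passed. Of the 13 pairs 11 still passed without those cells. Bcl6 and Prdm1, which repress each other's programme in T and B cells, gave no usable value: cells with Bcl6 held 0, 0 and 1 UMIs of Prdm1 in the 3 libraries.

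**Figure D5:**
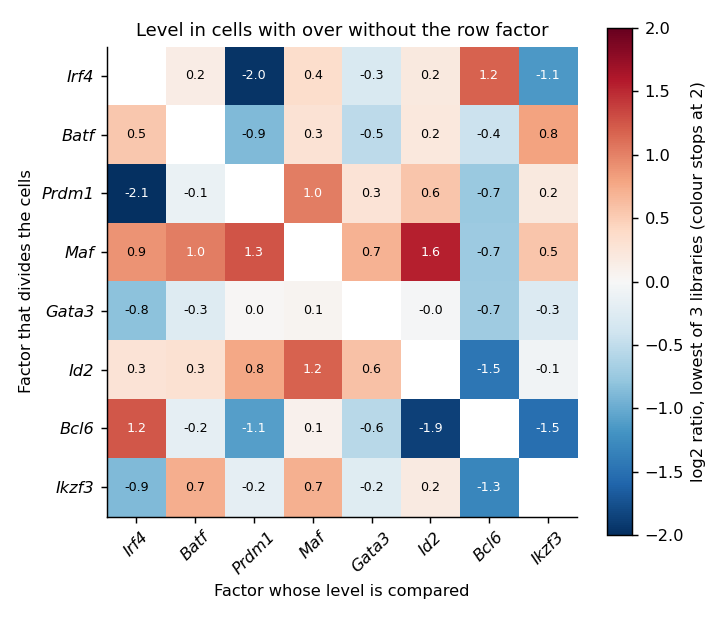
Lowest over the 3 libraries of the log2 ratio of the column factor's level in cells with over cells without a UMI of the row factor (UMIs per 1000000, 0.5 UMI added). The Maf row is above 0.5 for 6 of the 7 other factors, and the entries of Bcl6 and of Irf4 with Prdm1 rest on few UMIs.

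The genes most like each factor were those whose level was highest in its cells, by the lowest of the 3 log2 ratios, among genes with at least 300 UMIs. For Irf4 these were Cd83 (2.14), an activation marker, the immediate early gene Egr1 (1.53) and Bcl2a1d (1.37), a survival gene of the Bcl2 family. Cd83 had 152.9 UPM in cells with Irf4 against 23 in the others in GFPlow, 147.7 against 35.7 in GFPmed and 524.8 against 87.6 in GFPhigh. These levels in cells with Irf4 rest on 7, 7 and 47 UMIs. Egr1 had 5 and Bcl2a1d 6 UMIs in the GFPlow cells with Irf4. Cells with Irf4 had medians of 1193, 1678 and 1607.5 UMIs in all, beside 1084, 1539 and 1119 in cells without it. For Batf the medians were 1122, 1991 and 1444.5 beside 1084, 1519 and 1118. The effect of depth here was not tested. The genes most like Batf were Rilpl2 (1.34), the costimulatory receptor Tnfrsf9 (1.10, on 3 UMIs in the GFPlow cells with Batf) and Tmem242 (0.91). Without cells holding at least 2 UMIs of other types the last 2 were replaced by Cd83 and Mif4gd. Cd83, Egr1 and Tnfrsf9 are in the TCR list, so that these values and the TCR gate share data.

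For Maf the genes most like it were S100a4 (2.32), Icos (2.12), a costimulatory receptor, and S100a6 (2.10). S100a4 and S100a6 are in the effector list, so that these values, and those of Gata3 below, share data with the effector gate. Icos had 665.3 against 152.7 UPM in GFPlow, 639.9 against 93.3 in GFPmed and 758.9 against 112.6 in GFPhigh, so that its level in cells with Maf differed little between libraries. Prdm1 and Id2 shared their first 2 genes, Ccl5, a chemokine of cytotoxic and memory cells, and Penk, the precursor of enkephalins. Ccl5 stood at 2.38 for Prdm1 and 2.67 for Id2 and Penk at 2.16 and 2.17. Penk had few UMIs in GFPlow and GFPmed. In the order GFPlow, GFPmed, GFPhigh it had 4, 2 and 25 UMIs in cells with Prdm1 and 4, 6 and 68 in cells with Id2. Without cells holding at least 2 UMIs of other types Ccl5 remained among the first 3 for both. The third gene was Serpina3g (1.83) for Prdm1 and Ahnak (1.65) for Id2. S100a6, a gene of the effector list, took the place of Ahnak without cells holding at least 2 UMIs of other types. For Maf, Ccl5 took the place of S100a6 without those cells.

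Gata3 had lower values, with S100a4 (0.86), Rilpl2 (0.74) and S100a6 (0.73). Bcl6 was led by the class II genes H2-Aa (1.95) and H2-Eb1 (1.4) of antigen-presenting cells, and by Vps41 (1.35). H2-Aa had 1722.8 UPM in the GFPlow cells with Bcl6 against 53.4 in the others. Without cells holding at least 2 UMIs of other types Rgs3, Tpi1 and Adgrl1 led instead, on 1 to 10 UMIs each per library. For Ikzf3 the values were Mgat1 (1.15), Pygo2 (1.09) and Szrd1 (0.91), and without cells of other types Fam111a and Ankrd11 took the places of the last 2.

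Relatives and partners of the factors were read from lists by family. Of 6 measured IRF genes besides Irf4, 1 was at least 1.5-fold higher in GFPhigh than in GFPlow and 0 were lower, beside 9.79% and 6.49% of all genes. That gene was Irf8, a factor of myeloid and B cells, with 17.7, 21.9 and 56.8 UPM in GFPlow, GFPmed and GFPhigh (log2 ratio 1.68). Irf1 (-0.31), Irf7 (-0.14) and Irf9 (-0.13), which act in interferon responses, stayed within 1.5-fold. Of the AP-1 partners Jund (0.46) and Junb (-0.06) were measured and both were within 1.5-fold.

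Bach2, which competes for Maf and AP-1 sites and restrains effector genes, had 92, 114.2 and 170.5 UPM, in the opposite direction to Maf (log2 ratio 0.89 for GFPhigh over GFPlow). Among the 4 measured genes of its list 1 was higher (all genes 9.79%) and 1 lower (all genes 6.49%), the small Maf protein gene Mafg (-1.14), while Bach1 was at -0.11. Id3, the sister of Id2, also went the other way from Id2, with 190.5, 229.3 and 349.7 UPM (0.88). The E protein genes Tcf3 (0.44) and Tcf12 (-0.05) were within 1.5-fold, and 2 of 4 measured genes of this list were higher (all genes 9.79%) and 0 lower (all genes 6.49%), the second being Tcf4 (1.02), named after its value was seen.

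Of the 4 Ikaros family genes besides Ikzf3 all were measured, 2 were higher and 0 lower, beside 9.79% and 6.49% of all genes. Ikzf4, which encodes Eos, had 30.8, 43 and 73.1 UPM (1.24), and Ikzf2, which encodes Helios, had 505.8, 507.9 and 789.7 UPM (0.64). Ikzf1 (0.16) and Ikzf5 (0.04) were near level. None of the 4 measured relatives and corepressors of Bcl6 passed 1.5-fold in either direction: Zbtb7b was at 0.33, Bcor at 0.27, Ncor1 at 0.09 and Zbtb7a at -0.21. The 1 measured receptor related to Rora, Nr1d2, was lower (-0.84), and of the GATA and T-box list Gata1, an erythroid factor, was at 0.16.

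Among 17 measured other regulators of effector T cells 5 were higher and 2 lower (all genes 9.79% and 6.49%), with a median of 0.17 beside 0.04 for all genes. Bhlhe40, a regulator of cytokine production, was at 1.61, Stat5a, which transmits interleukin-2 signals, at 1.0 and Hopx at 0.78, while Runx3, a factor of cytotoxic cells, was at -0.83. The other genes behind these counts, named after their values were seen, were Myb (3.61) and Runx2 (0.71) among the higher and Ahr (-0.91) among the lower. Myb, a factor of proliferating and progenitor lymphocytes, had 2.05, 5.57 and 27.3 UPM.

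Genes that have been linked to the factors as targets were counted in the same way. Of 8 measured genes linked to Irf4, Batf, Prdm1 and Maf 3 were higher in GFPhigh than in GFPlow and 1 lower (all genes 9.79% and 6.49%), with a median of 0.18. The checkpoint receptor Lag3 went from 8.62 and 7.96 to 26.4 UPM (1.59) and Ebi3, a subunit of interleukin-35, from 8.62 and 19.5 to 26.4 UPM (1.59). Tnfrsf18, which encodes GITR, was at 0.83 and Icos at -0.51, and the lower gene was Ccr6 (-0.76), named after its value was seen. Il10 had 16 UMIs in all and was not compared.

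Genes linked to Gata3 and Rora were mostly highest in GFPlow. Of 7 measured, 5 were at least 1.5-fold lower in GFPhigh than in GFPlow and 1 higher (all genes 6.49% and 9.79%), with a median of -1.39. In GFPmed over GFPlow 5 were lower and 0 higher (all genes 6.14% and 5.61%), with a median of -1.02. Il1rl1, which encodes the interleukin-33 receptor ST2 and is in the effector gate list, had 37.4, 11.9 and 7.49 UPM (-2.28). Il18r1 had 62.4, 30.6 and 18.5 UPM (-1.74), Ccr4, a skin-homing chemokine receptor, 32, 9.95 and 10.6 UPM (-1.58) and Il7r 193.8, 100.3 and 74 UPM (-1.39). Klrg1 (-0.66) was the last of the lower genes and Il2rb (1.28), a subunit of the interleukin-2 receptor, the higher one, both named after their values were seen. Gata3 itself was higher in GFPhigh than in GFPlow (0.30) and lower in GFPmed (-0.50), and the few Rora UMIs numbered 7, 2 and 1.

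Of 4 measured genes linked to Tbx21, 1 was higher and 2 were lower, beside 9.79% and 6.49% of all genes: Nkg7, a granule gene of cytotoxic cells, was at 0.80, Cxcr3 at -1.18 and Ly6c2 at -1.49. Of 5 measured genes linked to Bcl6, 2 were higher and 0 lower (all genes 9.79% and 6.49%). In GFPmed over GFPlow 1 was higher and 2 lower (all genes 5.61% and 6.14%), the lower ones being Cxcr5 (-0.66) and S1pr2 (-1.36), the latter named after its value was seen. The inhibitory receptor Pdcd1 had 11.1, 23.1 and 51.5 UPM (2.20) and Cd200 19.7, 28.7 and 70.5 UPM (1.83), while Cxcr5, the follicular homing receptor, was at -0.02 and Sh2d1a at -0.12.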

How the data were processed

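The authors deposited 1 table of unnormalized UMI counts for the inDrops libraries, with genes in rows and 1 column per cell. TopHat2, SAMtools and the mm10 genome are named in the submitters' processing notes, without versions. The gene annotation, the strand setting and the counting program are not given in the sources used here. Gene positions are from GENCODE M21. Reads of Gata3, Maf, Rora and Bcl6 cannot be told apart from overlapping genes on the other strand if strand was ignored. Gata3 and Ikzf3 also overlap a gene on their own strand. Of 6106 cells 671 with under 500 UMIs were left out. No doublet caller was run, and cells with markers of other types or above 3 times the median UMIs were left out as alternatives.

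Counts were summed per library and given per 1000000 UMIs (UPM). Log2 ratios used 0.5 added UMI. Levels have exact Poisson, ratios exact conditional binomial and shares exact Clopper-Pearson 95% intervals. Ratios below 50 UMIs over the 3 libraries were not counted. Thinning drew 500 UMIs per cell without replacement, and a count of 3 UMIs set the limit for an absent gene. With 1 library per window no p-value was computed. UMIs were counted at transcript ends, so levels of different genes are not compared. Of the gene lists 2 genes were left out and are not reported here. The factors, lists, gates and tests were chosen with earlier results of these data known. All 10 factors are named, with up to 4 genes of each list by size of the GFPhigh over GFPlow ratio among genes with at least 100 UMIs, and the 3 genes most like each factor. The calculation used Python 3.11.15 with scipy 1.17.1, and edgeR 4.0.16 for TMM factors, and was tested on simulated data.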

Additional observations from a re-analysis of the deposited data

Results flagged for a closer look

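Across the effector gate 2 factors went opposite ways in GFPlow and GFPhigh, by at least 1.5-fold in each. For Ikzf3 the log2 ratio of gated over other cells was 1.10 in GFPlow (0.49 to 1.69) and -0.93 in GFPhigh (-3.00 to 0.34). For Bcl6 it was -2.26 in GFPlow (-8.18 to -0.15), on 1 UMI inside the gate, and 0.71 in GFPhigh (-0.66 to 1.75). The difference between the libraries was not tested, since each window is 1 library.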

How the results depend on the processing

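Over 11 alternatives 324 of 330 ratios of the factors between windows stayed within their counting interval. The other 6 moved, all of them when cells were thinned to 500 UMIs, and the cause was not tested. A ratio was called reversed only if it changed sign, was past 1.5-fold in the main counts and belonged to a factor with at least 50 UMIs. By this rule 0 reversed between windows. Other signs did change. Batf in GFPmed over GFPlow went from 0.03 to -0.60 after thinning. In GFPhigh over GFPmed, Tbx21 went from 0.54 to -0.09 with equal weight per cell. Rora there went from -0.59 to 0.08 without cells holding at least 2 UMIs of other types. Counts of factors past the threshold changed as follows. In GFPhigh over GFPlow the 2 higher factors became 1 with equal weight per cell and 1 at 2-fold, and the 2 lower ones became 1 after thinning, 1 at 2-fold and 4 when 1 UMI per gene was enough, which adds Rora and Tbx21. In GFPmed over GFPlow the 1 higher factor became 0 after thinning, 0 without cells holding at least 2 UMIs of other types and 0 at 2-fold, and the 5 lower factors stayed within 1.5 times. In GFPhigh over GFPmed the 4 higher became 1 at 2-fold, and the 0 lower became 1 with 1 UMI per gene. Of 270 ratios across gates 4 reversed: Bcl6 across the effector gate in GFPmed was -0.92 without cells holding at least 2 UMIs of other types (0.60 with them), Bcl6 across the resting gate in GFPhigh was 0.14 with a gate of 2 UMIs and 0.55 with a gate from cells thinned to 1000 UMIs (-0.70 in the main counts), and Ikzf3 across the TCR gate in GFPlow was 0.38 with a gate of 2 UMIs (-0.78 with 1). The counts of factors past 1.5-fold across gates stayed within 1.5 times in 3 alternatives each. Scaling by TMM or by the median of ratios added Id2 to the lower factors of GFPhigh over GFPlow and took Bcl6 from the higher factors of GFPhigh over GFPmed. No paired analysis was possible because each window is 1 library. Depth limits Rora and Tbx21 most, at 10 and 41 UMIs.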
